A study of Mus musculus with 3 samples.

Results

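Scavenger receptors of 10 genes were followed in unstimulated mouse macrophages: Cd36, Scarb1, Msr1, Marco, Colec12, Cd68, Olr1, Stab1, Cd163 and Lrp1. They were taken by symbol from a fixed list that covers several structural classes of the family, and all 10 were found among the 55536 annotated genes of the quantification tables. The cells were primary macrophages derived from C57BL/6J mouse bone marrow, and polyadenylated RNA was sequenced in 3 libraries. Each library was labelled as treated with 100 ng/ml lipid A, the endotoxin core that engages Toll-like receptor 4, for 0 minutes, so the 3 form 1 group at the start of a stimulation and the series holds no second group to compare them with. The labels name 3 biological replicates with separate biosamples but the same donor record, and they give no sex or age. Whether each culture had its own mouse is not stated, so p-values measure only the spread of these libraries, which may be partly technical. The libraries held 27946070, 29779410 and 53447437 gene-assigned counts for replicates 1, 2 and 3.

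Scavenger receptors are membrane proteins that bind modified lipoproteins, bacterial surface molecules and debris of dying cells, and carry them into the cell or signal from the surface. They share ligands more than sequence, and are sorted into lettered classes by their fold: class A receptors have a collagen-like stalk, class B receptors cross the membrane at both ends, class D is represented by a mucin-like lysosomal protein, class E by a C-type lectin, class H by stabilins with repeated fasciclin domains, class I by cysteine-rich SRCR domains and class L by large multi-ligand lipoprotein receptors. In macrophages they are best known for loading the cell with oxidised LDL, which makes foam cells, and for clearing apoptotic cells.

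3 of the genes make pairs of proteins that differ by how the last coding exons are joined, and these junctions are shown because the transcript tables separate the forms. In each line the lower-case bases are the last 30 coding bases that both forms share and the capitals are the coding bases that follow in that form, in the mm10 genome with the GENCODE M21 annotation. Scarb1-201 encodes SR-BI, the HDL receptor, and Scarb1-202 encodes SR-BII, which has another cytoplasmic tail. Msr1-201 encodes the type I receptor with a terminal SRCR domain, and Msr1-202 encodes type II, which stops shortly after the collagen-like stalk. Cd163-201 and Cd163-202 differ at the end of the coding sequence, where the cytoplasmic tail is encoded.
Scarb1-201: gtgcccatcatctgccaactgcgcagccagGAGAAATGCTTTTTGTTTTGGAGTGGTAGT
Scarb1-202: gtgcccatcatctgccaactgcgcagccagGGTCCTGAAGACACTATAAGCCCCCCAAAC
Msr1-201: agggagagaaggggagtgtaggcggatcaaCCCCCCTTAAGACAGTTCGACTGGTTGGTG
Msr1-202: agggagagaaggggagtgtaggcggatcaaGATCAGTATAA
Cd163-201: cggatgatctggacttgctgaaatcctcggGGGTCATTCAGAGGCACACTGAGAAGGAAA
Cd163-202: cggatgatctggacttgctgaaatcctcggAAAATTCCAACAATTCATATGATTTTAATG
The forms split after the last shared base at position 125283899 of chromosome 5 for Scarb1, 39608085 of chromosome 8 for Msr1 and 124327987 of chromosome 6 for Cd163. Scarb1-201 then enters a 129-base exon (chr5:125281105-125281233) that Scarb1-202 skips. Msr1-202 ends its reading frame 11 bases past the split, stop codon included, in an exon of its own (chr8:39603454-39605982), whereas Msr1-201 continues for 323 coding bases.

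The promoter windows of Cd68, Cd36 and Olr1 are printed because these were the genes with the highest level, the largest spread between libraries and the lowest level. Each is the 250 bases before the RefSeq start site in GRCm38.p6, the assembly also called mm10, read on the gene's own strand. Capitals mark matches, on either strand, to 7 motifs: the PU.1 site GAGGAAGT, the AP-1 site TGANTCA, the TATA box TATAAA, the CCAAT box, the GC box GGGCGG, the E-box CACGTG and the PPAR direct repeat.
Cd68: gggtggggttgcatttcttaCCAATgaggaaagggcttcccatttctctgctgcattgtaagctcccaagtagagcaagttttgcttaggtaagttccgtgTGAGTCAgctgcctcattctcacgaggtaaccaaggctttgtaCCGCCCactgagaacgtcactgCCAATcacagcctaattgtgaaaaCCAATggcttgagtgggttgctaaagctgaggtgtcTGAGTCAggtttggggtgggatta
Cd36: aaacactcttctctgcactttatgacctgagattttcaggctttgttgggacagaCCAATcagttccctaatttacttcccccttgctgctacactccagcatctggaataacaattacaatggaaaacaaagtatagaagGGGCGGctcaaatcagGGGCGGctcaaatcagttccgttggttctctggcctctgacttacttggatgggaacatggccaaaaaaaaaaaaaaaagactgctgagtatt
Olr1: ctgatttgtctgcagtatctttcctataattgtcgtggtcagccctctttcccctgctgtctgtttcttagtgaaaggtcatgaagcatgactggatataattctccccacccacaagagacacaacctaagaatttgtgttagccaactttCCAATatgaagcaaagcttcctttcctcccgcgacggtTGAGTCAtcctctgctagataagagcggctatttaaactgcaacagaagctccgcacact
The Cd68 window (chr11:69666171-69666420, minus strand) held AP-1 letters at -149 and -24, CCAAT at -230, -84 and -60 and a GC box on the other strand at -106, counted from the start site to the first base of the match. The Cd36 window (chr5:17835897-17836146, minus strand) held CCAAT at -195 and GC boxes at -109 and -93, and the start of Cd36-206 lay 179 bases downstream of the RefSeq start. The Olr1 window (chr6:129507166-129507415, minus strand) held AP-1 letters at -60 and CCAAT at -98. AP-1 letters therefore stood in the windows of both the most and the least abundant receptor, against 6.75% of 32817 RefSeq promoter windows of the same length. CCAAT stood in 33.8% and the GC box in 32.7% of all windows, so those matches are common letters. Among the other members matched, Stab1 and Cd163 had CCAAT once, Lrp1 had a GC box once and Marco had no match. A match is a description of letters, and no match says only that these letters are not in the window.

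The receptors covered a wide range of levels, from Cd68 among the most abundant messages of the cell to Olr1 near the limit of detection. Levels are given as TPM, each gene's share of all transcripts after correction for length, which allows genes to be compared. In all, 9 of the 10 members reached 1 TPM in every library, the exception being Olr1, against 44.8% of 22028 protein-coding genes. The median of the members' mean TPM was 162.3, against 14.88 over the 11886 genes that passed the count filter, which 9 members passed and Olr1 did not. Since the RNA is from bulk cultures, fewer cells carrying a receptor and less RNA per cell cannot be told apart. All 6 macrophage markers reached 1 TPM in each library, led by Tyrobp (2800 ± 936.7 TPM), Csf1r (892.0 ± 352.3) and Adgre1, which encodes F4/80 (522.3 ± 161.1; SD, n = 3 for each and for every ± below), so the labelled cell type had its defining messages.

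**Figure D1:**
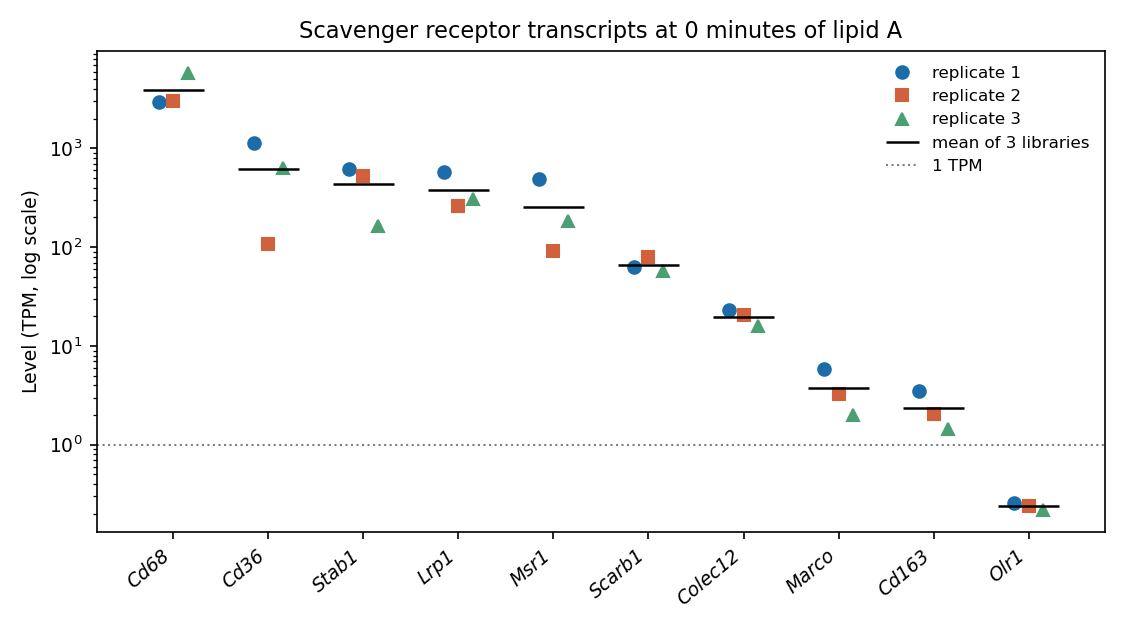
TPM of each scavenger receptor (log axis, genes ordered by mean) in the 3 libraries, with the mean as a bar and 1 TPM dotted. Cd68 lies above the other receptors in every library, and Olr1 lies below 1 TPM in every library.

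Cd68 (ENSMUSG00000018774.13; chr11:69664213-69666153, minus strand), the class D receptor macrosialin of late endosomes and lysosomes, measured 2937, 3004 and 5864 TPM in replicates 1, 2 and 3. Replicates 1 and 2 were close to each other and replicate 3 was high, and the mean of 3935 ± 1671 TPM placed it 22nd of all protein-coding genes. Cd68 was above every other receptor in each library, and alone made up 50.04%, 73.37% and 81.09% of the summed TPM of the 10 members. Nearly all of it was 1 transcript, Cd68-201, with 96.14%, 98.71% and 99.49% of the gene's TPM.

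The class B receptors differed in how steady they were: Cd36 varied most of the members tested, and Scarb1 varied far less. Cd36 (ENSMUSG00000002944.15; chr5:17781690-17888801, minus strand), the fatty acid translocase that also binds oxidised LDL and thrombospondin, measured 1133, 108.2 and 635.3 TPM. Replicate 2 stood far below the other libraries, and the SD was nearly as large as the mean (625.6 ± 512.7 TPM, rank 171). On CPM, the count relative to library size, scaled by the TMM method, which removes differences of library composition, the values were 1803, 167.7 and 1285, so the highest library held 10.75 times the lowest. That ratio was reached or passed by 0.951% of the genes tested, and without replicate 2 it was 1.403. Scarb1 (ENSMUSG00000037936.15; chr5:125277087-125341094, minus strand), the receptor for selective uptake of cholesteryl ester from HDL, was at 62.97, 79.66 and 57.46 TPM (66.70 ± 11.56, rank 1827), with a highest to lowest ratio of 1.535 on the TMM-scaled CPM. Over protein-coding transcripts alone, a choice made after seeing the data, its ratio on TPM was 1.996.

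Class A held 1 abundant member, Msr1, with Colec12 and Marco far below it in every library. Msr1 (ENSMUSG00000025044.16; chr8:39581685-39642673, minus strand), the acetylated LDL receptor SR-A, measured 495.9, 92.27 and 185.9 TPM (258.0 ± 211.3, rank 478). As for Cd36, replicate 1 was highest and replicate 2 lowest, and the TMM-scaled values of 793.0, 142.8 and 405.9 gave a ratio of 5.553. Leaving out replicate 1 brought this ratio to 2.842 and leaving out replicate 2 brought it to 1.954. Colec12 (ENSMUSG00000036103.9; chr18:9707595-9882644, plus strand), the collectin placenta 1 that joins a collagen stalk to a lectin domain, was at 23.14, 20.41 and 15.86 TPM (19.80 ± 3.678), and its ratio of 1.127 was the smallest of the members tested. Marco (ENSMUSG00000026390.7; chr1:120474538-120505024, minus strand), which binds bacteria and is typical of marginal zone and alveolar macrophages, was at 5.89, 3.26 and 2.00 TPM from 181, 107 and 123 counts, highest in replicate 1 and lowest in replicate 3.

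The large endocytic receptors of classes H and L were abundant. Stab1 (ENSMUSG00000042286.13; chr14:31139013-31168641, minus strand), stabilin 1, a receptor for acetylated LDL and the matrix protein SPARC, measured 625.7, 520.8 and 163.3 TPM (436.6 ± 242.4, rank 259). Here replicate 3 was the low library, and the TMM-scaled ratio of 2.775 became 1.22 without it. Stab1 shares 112 exon bases with Nt5dc2 on the opposite strand, and whether the counting used strand is not given in the sources used here. Lrp1 (ENSMUSG00000040249.15; chr10:127538161-127621148, minus strand), the receptor for apolipoprotein E remnants and protease complexes, measured 581.4, 263.7 and 306.1 TPM (383.7 ± 172.5, rank 293), with a ratio of 2.415 that became 1.252 without replicate 1.

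Cd163 and Olr1 had the lowest means in the gene table. Cd163 (ENSMUSG00000008845.9; chr6:124304656-124330527, plus strand), the haemoglobin-haptoglobin receptor of class I, was at 3.54, 2.04 and 1.46 TPM (2.347 ± 1.073) from 238, 148 and 210 counts. In the kallisto-format table its mean was 4.427 ± 1.479 TPM. Olr1 (ENSMUSG00000030162.14; chr6:129485244-129507165, minus strand), the lectin-like oxidised LDL receptor LOX-1 of class E, was at 0.26, 0.24 and 0.22 TPM from 7, 8 and 28 counts, above the 3 counts that a count of 0 would allow. Its TPM values were nearly equal while its TMM-scaled values differed 2.347-fold, and its effective length as deposited was 1437 and 1688 bases in replicates 1 and 2 and 3326 in replicate 3, where all counts were given to the long transcript Olr1-201. The 418-base Olr1-205 held 7%, 5.125% and 0% of its counts in the RSEM-format transcript table.

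Along the order of mean TPM, 5 of the 9 neighbouring pairs did not overlap in range over the libraries: Cd68 over Cd36, Msr1 over Scarb1, Scarb1 over Colec12, Colec12 over Marco, and Cd163 over Olr1. The other neighbours overlapped. Cd36 exceeded Stab1, and Stab1 exceeded Lrp1, in 2 of 3 libraries. In the gene table Lrp1 exceeded Msr1, and Marco exceeded Cd163, in each of the 3. Summed from the kallisto-format table, these pairs turned: Lrp1 exceeded Msr1 in 1 library (means of 194.1 and 232.7 TPM), and Marco exceeded Cd163 in 0 (3.401 and 4.427 TPM). The sequence Cd36, Stab1, Lrp1 and Msr1 is therefore not resolved by these libraries, and neither is the order of Marco and Cd163.

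Several receptors were higher in replicate 1 than in the others. Of the 9 members tested, 7 were highest in replicate 1, both on the TMM-scaled counts and on TPM, against 34.7% and 39.3% of all genes tested. The exceptions were Cd68, highest in replicate 3, and Scarb1, highest in replicate 2. The highest library exceeded the lowest by more than 2-fold for 6 of 9 members, against 37% of all genes tested, and by more than 5-fold for 2, Cd36 and Msr1, against 4.83%. These counts rest on single libraries: the members over 2-fold were 4, 3 and 3 without replicates 1, 2 and 3 in turn, against 19.1%, 21.3% and 20.2% of all genes tested. The members over 5-fold were 1, 0 and 2, against 1.63%, 1.83% and 3.08%. The members' median ratio was 2.508, against 1.736 over all genes tested.

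With 1 group, the only model across genes asks whether a gene varies between libraries more than genes of like abundance, and this was done with edgeR's quasi-likelihood fit. No gene passed an adjusted p of 0.05 (0% of 11886), and hence no member did. Before adjustment 545 genes (4.59%) were under 0.05, and 2 of 9 members were among them. These were Cd36 and Msr1, both with an edgeR adjusted p = 0.97. For the remaining members tested the edgeR adjusted p ran from 0.973 for Stab1 to 0.998 for Colec12. DESeq2 marked 9 genes as dispersion outliers, none of them a member. The differences of Cd36 and Msr1 between libraries are thus large in size but did not pass the test, which rests on 3 libraries.

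**Figure D2:**
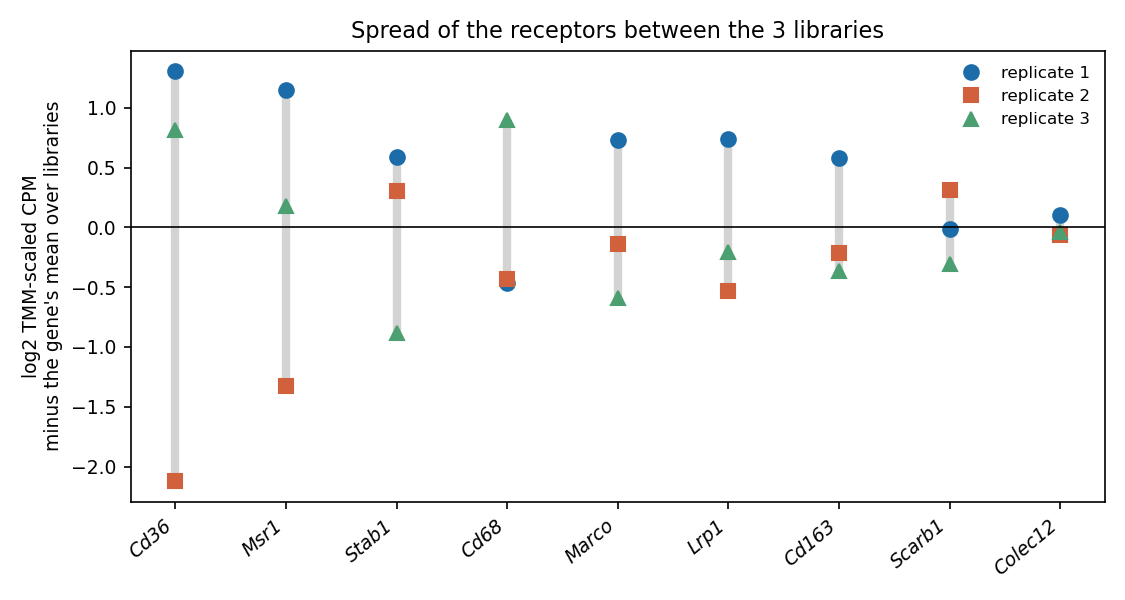
Each tested receptor's log2 TMM-scaled CPM minus its own mean over the 3 libraries, ordered by spread, with grey bars from the lowest to the highest library. Replicate 2 lies far below the others for Cd36 and lowest for Msr1, and replicate 3 lies apart for Stab1 (low) and Cd68 (high).

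Because Cd36 is also known from platelets, fat cells and endothelium, markers of those cells are given beside its values of 1133, 108.2 and 635.3 TPM. The 5 adipocyte markers were at 0 counts in every library, Adipoq among them. The platelet markers summed to 2451, 319.7 and 576.7 TPM, nearly all of it Pf4 (2441, 316.9 and 563.5), which like Cd36 was highest in replicate 1 and lowest in replicate 2. Of the 7, only Pf4 and Ppbp (8.16, 1.60 and 10.44 TPM) reached 1 TPM in every library. Gp1ba was at 0.31, 0.46 and 1.62 TPM and Gp6 at 0.05, 0.07 and 0.09. Gp9 (0.17, 0 and 0.16 TPM) and Gp1bb (0.12, 0.06 and 0.24) were lowest in replicate 2. Itga2b was at 0.61, 0.61 and 0.6 TPM, about equal in the libraries. Its 27, 10 and 62 counts are 0.9358, 0.3204 and 1.261 on the TMM-scaled CPM, where replicate 2 was lowest. On that scale every platelet marker but Gp1ba was lowest in replicate 2, among them Gp6 (0.1733, 0.03204 and 0.305). Endothelial markers summed to 19.61, 34.33 and 64.52 TPM, with 2 of 7 (Kdr and Stab2, the latter also a scavenger receptor) at 1 TPM in every library and Tie1 at or below 0.03. Most of the sum was Stab2 (12.23, 21.39 and 57.37), and the others did not share its order. Kdr (3.8, 11.68 and 4.05) was highest in replicate 2. Cdh5 (1.25, 0.29 and 1.89) and Pecam1 (0.76, 0.6 and 1.08) were lowest there. Emcn (0.77, 0.27 and 0.02) and Lyve1 (0.79, 0.1 and 0.08) were lowest in replicate 3. Neutrophil markers summed to 171.9, 36.23 and 337.1 TPM, also lowest in replicate 2, with S100a9 (86.86, 20.09 and 182.8), S100a8, Ngp and Ltf at 1 TPM in every library and Elane (0.52, 0.07 and 0.66) below it. None of the 5 stromal, 4 erythroid or 4 dendritic markers reached 1 TPM in every library, and their sums stayed at or below 0.79, 0.21 and 2.47 TPM. The part of other cells in the spread of the receptors was not tested.

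The genes whose profile over the 3 libraries was nearest to that of Cd36 were sought among 2468 genes of at least 50 mean TPM, by Euclidean distance on centred log2 TMM-scaled values. Mmp12, macrophage elastase, was nearest (distance 0.34) at 369.5, 46.47 and 230.3 TPM. Rgs1 (0.837), S100a8 (0.924), Lpl, which encodes lipoprotein lipase (0.956), and Folr2 (0.968) followed. All 5 were lowest in replicate 2, as Cd36 was, which follows from choosing them by closeness to its profile. With 3 libraries such likeness rests on few points and is a description of them.

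Transcripts were compared in both deposited transcript tables, one in the format of RSEM and one in that of kallisto. The same transcript led in all 3 libraries of both tables for 6 of 10 members: Scarb1-201, Msr1-202, Marco-201, Colec12-201, Cd68-201 and Stab1-201. The lead of Stab1-201 was slight in replicate 3 of the RSEM-format table, at 34.96% against 34.81% for the retained-intron Stab1-209. For Cd36, Olr1, Cd163 and Lrp1 the leader changed with the library or the table.

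Cd36 is annotated with several start regions whose 5 longest transcripts carry the same coding sequence of 1419 bases. Transcripts of the start nearest the coding sequence (Cd36-201 and Cd36-206, starts at 17835696 and 17835717) took 57.62%, 53.82% and 60.40% of the gene's TPM in the RSEM-format table and 51.84%, 53.80% and 50.49% in the kallisto-format table. Those of the distal start (starts at 17888747 and 17888801) took 37.20%, 41.23% and 36.44%, and 44.58%, 42.82% and 47.11%. The shares moved little while the level of the gene differed 10.75-fold, so both start groups were low in replicate 2: the nearest start measured 653.2, 58.23 and 383.6 TPM and the distal start 421.6, 44.61 and 231.5. Single transcripts were less stable, since Cd36-201 had 24.63%, 16.42% and 36.59% in the RSEM-format table and 8.165%, 6.427% and 19.72% in the kallisto-format table.

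For Scarb1 the SR-BI form prevailed over SR-BII. Scarb1-201 made up 79.11%, 80.93% and 81.83% of the pair in the RSEM-format table (80.62% ± 1.384) and 83.93%, 85.04% and 81.82% in the kallisto-format table (83.60% ± 1.635). A short processed transcript without a reading frame, Scarb1-204 of 469 bases, was near 0 in replicates 1 and 2 (0.556% and 0%) but took 31.56% of the gene's TPM in replicate 3, and 32.40% in the kallisto-format table, though only 4.473% of the gene's estimated counts. Counting only protein-coding transcripts, a choice made after seeing the data, Scarb1 was at 61.62, 77.38 and 38.77 TPM.

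For Msr1 the type II form prevailed. Msr1-202 made up 74.59%, 65.77% and 72.06% of the pair in the RSEM-format table (70.81% ± 4.540) and 61.30%, 53.72% and 65.95% in the kallisto-format table (60.32% ± 6.174), so it led in all 3 libraries of both tables by a margin that depended on the table. Type I was nevertheless well above 1 TPM, at 109.8, 29.14 and 51.21 TPM in the RSEM-format table. Both forms were highest in replicate 1 and lowest in replicate 2. The short Msr1-205 took 9.63%, 4.226% and 0% of the gene's TPM in the RSEM-format table and 16.44%, 14.89% and 0% in the kallisto-format table.

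**Figure D3:**
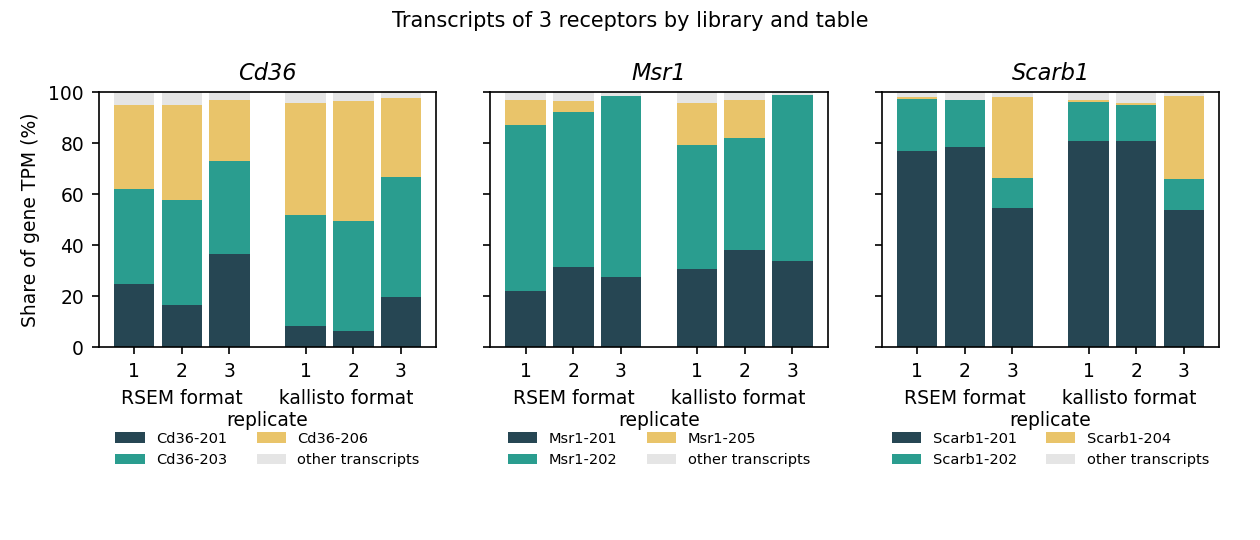
Shares of each gene's TPM taken by the transcripts that reach 5% in either table, for Cd36, Msr1 and Scarb1, with bars for replicates 1, 2 and 3 of the RSEM-format (left) and kallisto-format (right) tables. Msr1-202 and Scarb1-201 lead in every bar, and Scarb1-204 is sizeable in replicate 3 of both tables only.

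The forms of Cd163 were at low levels, and their proportions differed between libraries and tables. Cd163-201 made up 67.36%, 80.14% and 78.43% of the pair in the RSEM-format table, and 49.86%, 84.68% and 83.54% in the kallisto-format table. A retained-intron transcript, Cd163-203, took 31.64%, 28.43% and 30.61% of the gene in the first table and 6.608%, 4.867% and 11.11% in the second.

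For Lrp1 the tables disagreed on the leading transcript. The retained-intron transcript Lrp1-208, only 763 bases long and lying within 1436 bases of the gene's 3′ end, took 45.01%, 49.53% and 47.97% of the TPM in the RSEM-format table and 22.99%, 28.64% and 26.04% in the kallisto-format table. It held only 3.369%, 4.009% and 4.656% of the gene's estimated counts, while the full-length Lrp1-201 of 14888 bases held 95.91%, 95.24% and 93.83%. Of the bases of Lrp1-208, 95.4% are also exon bases of Lrp1-201. Lrp1-205, annotated as a target of nonsense-mediated decay, took 10.04%, 6.868% and 17.38% of the TPM in the RSEM-format table. In the kallisto-format table it took 7.006%, 10.44% and 11.94%. Summed by gene, Lrp1 was at 383.7 TPM in the gene table, 194.1 ± 71.65 in the kallisto-format table and 157.3 ± 87.52 over protein-coding transcripts alone.

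Stab1 also had large retained-intron shares of TPM, but these held more of its estimated counts than in Lrp1. In the RSEM-format table Stab1-201 held 74.29%, 76.16% and 65.47% of the counts, and the retained-intron Stab1-209 held 11.96%, 11.81% and 23.17%. The full-length Stab1-201 took 35.79%, 36.62% and 34.96% of the TPM in the RSEM-format table and 57.78%, 60.39% and 49.96% in the kallisto-format table, and the mean of the gene went from 436.6 TPM to 240.0 ± 91.13 in the kallisto-format table and 168.9 ± 88.64 over protein-coding transcripts. The retained-intron Stab1-209 took 16.26%, 16.03% and 34.81% in the first table and 9.047%, 9.027% and 13.19% in the second. Stab1-204 and Stab1-205, also retained-intron transcripts, averaged 14.88% and 11.63% in the first table and 6.399% and 14.04% in the second. The short coding Stab1-203 averaged 2.956% and 8.217%. The Stab1-202 fragment of 242 bases took 12.84%, 13.18% and 0% in the first table and 0% in the second. Replicate 3 was the lowest library in each of these summaries of the gene.

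Colec12 was assigned mostly to a transcript annotated as a target of nonsense-mediated decay. Colec12-201 took 91.44%, 90.84% and 87.64% of the TPM in the RSEM-format table and 91.83%, 83.53% and 83.47% in the kallisto-format table. It differs from the coding Colec12-204 by an extra 74-base exon and by an end 4645 bases upstream. The coding transcript alone was at 1.85, 1.87 and 1.96 TPM, a mean of 1.893 ± 0.05859 against 19.80 for the gene.

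**Figure D4:**
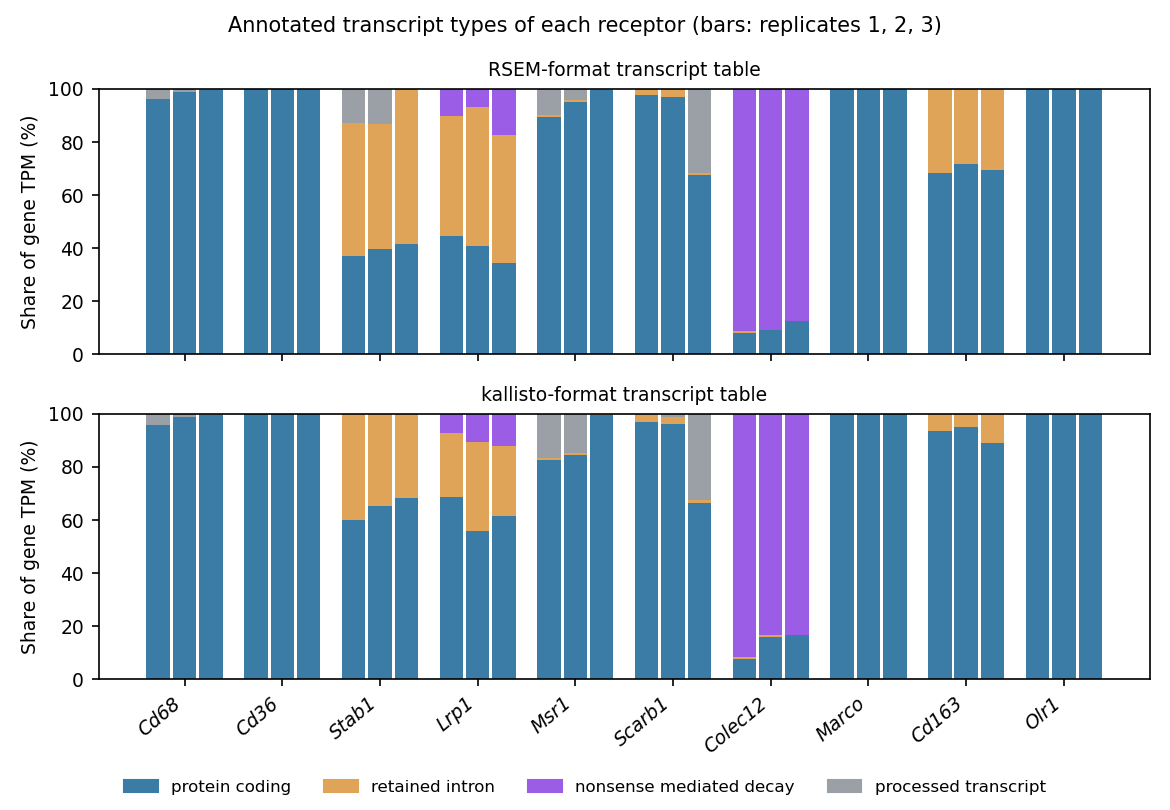
Share of each receptor's TPM by annotated transcript type, with 3 bars per gene for replicates 1, 2 and 3, in the RSEM-format (top) and kallisto-format (bottom) tables. Cd36, Marco and Olr1 have only protein-coding transcripts in the annotation, so their bars can hold no other type. Colec12 is mostly the decay-annotated form, and Stab1 and Lrp1 have large retained-intron shares that are smaller in the kallisto-format table.

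Other scavenger receptors, and genes around the family, were taken from lists of related genes, and no gene of any of the 6 lists passed the edgeR test of spread. The counts of each list are to be read beside the shares over all genes. These were 44.8% of protein-coding genes at 1 TPM in every library and 37% of genes tested over 2-fold between libraries. Of 16 other scavenger receptors and related genes, 8 reached 1 TPM in every library. They were led by Cd5l, a secreted SRCR protein of macrophages (529.9 ± 166.2 TPM), Clec7a, the beta-glucan receptor dectin-1 (480.7 ± 305.6), and Mrc1, the mannose receptor (382.7 ± 145.2). Scara5, a class A ferritin receptor, and Cd163l1 were at 0 counts in every library, which allows up to 0.107, 0.101 and 0.0561 CPM. Stab2, the stabilin of liver sinusoids, was at 12.23, 21.39 and 57.37 TPM, highest in replicate 3 where Stab1 was lowest. The median of the list was 6.137 TPM, and 5 of 8 tested differed more than 2-fold between libraries.

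Of 10 endocytic receptors related to Lrp1, 6 reached 1 TPM in each of the libraries. Their list's median level was 9.928 TPM, and 3 of 7 tested differed more than 2-fold between libraries. Lrp12 was highest (150.8 ± 17.76 TPM), followed by Lrp10 (45.29 ± 14.56) and Lrp6, a Wnt co-receptor (38.24 ± 7.112), and Lrp1b was at 0 counts. In the gene table all were below Lrp1 in every library. Over protein-coding transcripts alone Lrp1 was at 258.3, 108 and 105.5 TPM. Lrp12 was at 132.3, 167.7 and 152.6 TPM in the gene table, over all its transcripts. That was below the protein-coding sum of Lrp1 in replicate 1 and above it in replicates 2 and 3. Lrp12 was not summed over protein-coding transcripts alone, so these unlike sums do not order the genes. Lrp8, a receptor for reelin and apolipoprotein E, was at 8.48, 0.66 and 1.12 TPM, with replicate 1 apart from the others.

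Of 10 genes for the chaperone and adaptors of endocytosis, 8 reached 1 TPM in each of the libraries. Their list's median level was 74.77 TPM, and 3 of 8 tested differed more than 2-fold between libraries. Clta, the clathrin light chain (777.5 ± 145.3 TPM), Ap2m1, a subunit of the AP-2 adaptor (627.7 ± 67.84), and Dab2, a clathrin adaptor for cargo receptors (485.0 ± 389.8), were highest. Dab2 measured 925.8, 185.6 and 343.7 TPM and thus had the same order of libraries as Msr1 and Cd36. Gulp1, an adaptor that binds LRP1, was at 0 counts, and Pdzk1, which holds SR-BI at the surface of hepatocytes, was at 0.18, 0.06 and 0 TPM.

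All 11 genes for membrane and signalling partners of CD36 reached 1 TPM in each of the libraries. Their list's median level was 56.57 TPM, and 3 of 11 differed more than 2-fold between libraries. Itgb1, the integrin beta 1 chain (320.6 ± 53.04 TPM), Cd9, a tetraspanin (271.8 ± 44.25), and Lyn, a Src-family kinase (125.0 ± 47.59), were highest, and Ptk2, focal adhesion kinase, was lowest (3.35 ± 1.814). Tlr4, the receptor for lipid A, was steady at 60.63, 63.63 and 45.45 TPM. Tlr2 was at 22.39, 105.1 and 28.13 TPM, highest in replicate 2, the library in which Cd36 was lowest.

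Of 12 genes for ligands, 6 reached 1 TPM in each of the libraries. Their list's median level was 10.86 TPM, and 3 of 8 tested differed more than 2-fold between libraries. Apoe, which encodes a ligand of LRP1, was above every receptor (12011 ± 2749 TPM), followed by Lgals3, galectin-3 (3861 ± 615.6), and Lpl (977.2 ± 580.8). Apoa1, Apob and A2m were at 0 counts in every library. Lpl measured 1292, 307.0 and 1333 TPM, low in replicate 2.

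All 11 transcriptional regulators reached 1 TPM in each of the libraries. Their list's median level was 52.12 TPM, and 5 of 11 differed more than 2-fold between libraries. Spi1, which encodes PU.1 (284.9 ± 47.69 TPM), Nfe2l2, which encodes NRF2 (257.3 ± 96.14), and Maf (221.7 ± 50.98) were highest, and Cebpb was lowest (16.68 ± 12.91). Pparg, whose product is a known activator of Cd36, was at 42.76, 30.72 and 54.01 TPM, lowest in replicate 2. Its TMM-scaled ratio was 2.1, and that of Cd36 was 10.75. A link between the levels of Pparg and Cd36 was not tested. Itga2b, Gp9, Gp1bb, Pecam1, Emcn, Lyve1, Tlr4, Tlr2, Stab2, Lrp8 and Pparg fall outside the rule for named genes and were chosen after their values were seen.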

How the data were processed

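Expected counts, TPM and FPKM per gene were deposited by the authors in RSEM format. Expected counts and TPM per transcript were deposited in both RSEM and kallisto formats, the latter with estimated counts. The build is mm10 and the annotation M21, per the labels and the identifiers in the deposited tables. The aligner, versions and use of strand: not given in the sources used here. The isoform percent and posterior mean count columns deposited by the authors were also read. All 3 libraries entered as 1 group.

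Expected counts were rounded. The 26345 entries naming no gene (0.131%, 0.122% and 0.0843% of counts) were left out. Genes were filtered with filterByExpr, scaled by TMM and fitted with an intercept-only quasi-likelihood model in edgeR 4.0.16 (R 4.3.3, limma 3.58.1). The upper-tail F test of each gene's dispersion against the prior was adjusted by Benjamini-Hochberg over all genes tested. DESeq2 1.42.0 was an alternative. The script was tested on simulated data. On log2(TPM + 1), the median gene of replicates 1, 2 and 3 stood 0.10, 0.12 and -0.23 from the other libraries, and 0.00 on the TMM scale. Promoters are from RefSeq (GRCm38.p6), where 7 of 10 members matched. Member windows on chromosome 18, which carries Colec12, were left out beforehand.

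The members and lists were chosen with earlier results of these data known. One gene of a list is not reported here, and the list's counts leave it out. Named genes are all 10 members, the 3 highest and the lowest of each list by mean TPM, those needed to state a small count, the 5 nearest to the member of largest ratio, and transcripts of at least 5% of a member's TPM. Alternatives were other thresholds, tables, scalings, filters and leaving out each replicate.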

Additional observations from a re-analysis of the deposited data

How the results depend on the processing

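No paired analysis was possible because the labels give 1 group. The 3 libraries limit every statement on spread. The number of genes called more variable, 0 by edgeR, was 146 with no filter on low counts and 9 as DESeq2 dispersion outliers, and ranged from 0 to 7 when 1 replicate was left out, with 7 without replicate 2. No member was among them in any of these fits. The number of members at 1 TPM in every library was 9, with 7 at a threshold of 10 TPM and 10 at 0.1 TPM. With 1 replicate left out, the members over 2-fold ranged from 3 to 4 (6 with all libraries) and those over 5-fold from 0 to 2. Of 60 alternative values of a member's mean TPM, 50 stayed within 1 SD and 10 moved further. This count overstates stability, because leaving out 1 of 3 libraries always shifts a mean by less than 1 SD. The values of Cd36, Marco and Olr1 over protein-coding transcripts could not differ beyond rounding either. Alternatives on FPKM, another unit, were below TPM for every member. The FPKM means of Scarb1 (45.39), Colec12 (13.45) and Olr1 (0.1633) counted as moved, although the unit differs. Protein-coding transcripts alone, an alternative chosen after seeing the data, gave the largest fold decrease for Colec12, to 1.893 from 19.80 TPM. Of 90 alternative ratios of highest to lowest library, 77 were within 1.5-fold of the value reported and 13 moved further, among them Cd68, which went from 2.572 to 1.027 without replicate 3. Marco at 107 to 181 counts, Cd163 at 148 to 238 and Olr1 at 7 to 28 are limited by depth.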
